A study of Rattus norvegicus with 28 samples.

Results

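The libraries come from 2 regions of the rat brain, nucleus accumbens (NAc) and medial prefrontal cortex (mPFC). In each library 100 genes that both regions transcribe held 11.6 to 14.1% of the counts. The genes described here were chosen by their measured level and by their regional difference: they are the 100 with the highest mean CPM over all 28 libraries, where CPM is a gene's count per 1000000 counts of the library. To enter, a gene had to differ by less than 1 on the log2 scale between the mean CPM of the NAc and of the mPFC libraries of the H3.3WT virus, after adding 0.5 to each mean. Of the 15635 genes in the deposited table, 14150 met that limit, and 15 genes named by their identifiers were left out beforehand.

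The study asked what the dopaminylation site of histone H3 contributes in each region after cocaine. Young adult male Sprague-Dawley rats of 200 to 250 g self-administered cocaine with extended access for 10 days, so every group had the drug, and no library used here came from a drug-free group. A lentivirus, lenti-pCDH-H3.3WT for the wild-type histone or else lenti-pCDH-H3.3Q5A for the mutant, was then injected on both sides into either the NAc or the mPFC. The rats were tested for seeking under cocaine cues once the virus had been expressed through 30 days of abstinence. The 4 groups are NAc with H3.3WT, NAc with H3.3Q5A, mPFC with H3.3WT and mPFC with H3.3Q5A, each with 7 libraries of polyadenylated RNA. The labels name no promoter, no transduced cell type and no uninjected control, and they do not say which animal a library came from. P-values here therefore reflect only how much these libraries vary, which may be technical. Each title also carries P1 or P2, a mark that the labels do not explain. The mPFC H3.3WT group holds 4 libraries marked P1, and every other group holds 3.

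H3.3 is the histone H3 variant that is deposited outside DNA replication and builds up in the chromatin of neurons, which no longer divide. Glutamine 5 of its tail can be coupled to dopamine by transglutaminase 2, and the H3.3Q5A form carries alanine there. In brain tissue the genes with the most reads typically encode cytoskeletal, synaptic vesicle, energy metabolism and translation proteins that many neurons and glia use. The files identify genes by Ensembl identifier and do not pair them with symbols, and 0 of the 100 identifiers matched the reference table at hand. No member is therefore given a name or a role, and the markers of cell types and regions were not checked by name. The level of H3.3, which the virus carries, was not checked either. CPM is not scaled to transcript length, and a long transcript gives more reads than a short one at the same number of molecules. The 100 genes are thus those with the most counts, and the order of 2 genes by CPM is not an order of their transcript numbers.

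Total counts ran from 15.4 to 51.7 M per library (1 M is 1000000 counts), and every one of the 100 genes had between 4643 and 202424 counts in each library. Counting error was accordingly small, with a median coefficient of variation (CV, the SD over the mean) from counting alone of 0.487 to 0.578% across the 4 groups. Libraries nevertheless differed in ways the groups do not explain. NAc H3.3WT replicate 17 had the smallest total, 15.4 M, and a median Spearman correlation over all genes with the other libraries of its group of 0.966, against a group mean of 0.988. NAc H3.3Q5A replicate 3, with 19.98 M, had a median of 0.981 against a group mean of 0.992. A set of 122 genes with at least 10 CPM that were at least 2 higher on the log2 scale in NAc than in mPFC with H3.3WT averaged 4.03 log2 CPM in mPFC H3.3Q5A replicate 34, and at most 3.15 in the 6 other libraries of that group. Fold changes, CVs and counts of genes passing a test that moved by over 1.5 times without 1 of these 3 libraries are given both ways. By the same correlation, mPFC H3.3WT replicate 13 was also low, with a median of 0.980 against a group mean of 0.990.

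The 100 genes had mean CPM values from 778.2 to 3067 over the 28 libraries, with a median of 1158, against a median of 23.7 over all 15635 genes. These levels chose the genes and carry no test. The highest mean, 3067, was that of ENSRNOG00000048682, which had 2905 ± 238 CPM in NAc H3.3WT, 2547 ± 275 in NAc H3.3Q5A, 3576 ± 197 in mPFC H3.3WT and 3241 ± 305 in mPFC H3.3Q5A (SD, n = 7). ENSRNOG00000046005 followed with 3448 ± 479, 3274 ± 590, 2480 ± 461 and 2485 ± 307 CPM in the same groups (SD, n = 7). The first of these genes was thus higher on average in mPFC and the second higher in NAc, and both lay within the limit on the region difference.

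By level, the set ended between close values. The last 2 genes inside the limit of 100 were ENSRNOG00000033508 at 783.6 and ENSRNOG00000004680 at 778.2 mean CPM. The first 2 outside were ENSRNOG00000002343 at 772.0 and ENSRNOG00000014375 at 765.8 mean CPM. On the mPFC side of the region limit, ENSRNOG00000010365 lay just inside at a log2 difference of -0.95 (578.3 CPM in NAc and 1117 in mPFC with H3.3WT). Its NAc mean includes 846.5 CPM in replicate 17, with 648.2 in the next library and a median of 524.3. Whether it would stay inside the limit without replicate 17 was not tested. The nearest gene outside that reached the level was at -1.06. On the NAc side the nearest member was at 0.79 and the nearest gene outside, ENSRNOG00000010872, at 1.02 (2432 and 1198 CPM). Altogether 114 genes of the table had a mean CPM at or above that of the last member, of which 9 were kept out by the region limit alone, 5 of them higher in NAc and 4 higher in mPFC. The other 5 were kept out by identifier.

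Together the 100 genes held 11.6 to 14.1% of the counts of a library. Their share was 12.8 ± 0.431% in NAc H3.3WT, 12.4 ± 0.271% in NAc H3.3Q5A, 13.5 ± 0.490% in mPFC H3.3WT and 12.8 ± 0.621% in mPFC H3.3Q5A (SD, n = 7). The lowest, median and highest library had 12.02, 12.9 and 13.3% in NAc H3.3WT and 12.1, 12.5 and 12.7% in NAc H3.3Q5A. In mPFC they had 12.8, 13.5 and 14.1% with H3.3WT and 11.6, 12.9 and 13.4% with H3.3Q5A. The ranges overlapped between all pairs of groups except NAc H3.3Q5A and mPFC H3.3WT, and no p-value is given because the share is a sum over genes chosen for their level. The lowest value, 11.6%, belonged to mPFC H3.3Q5A replicate 34, the library with the raised NAc genes.

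**Figure D1:**
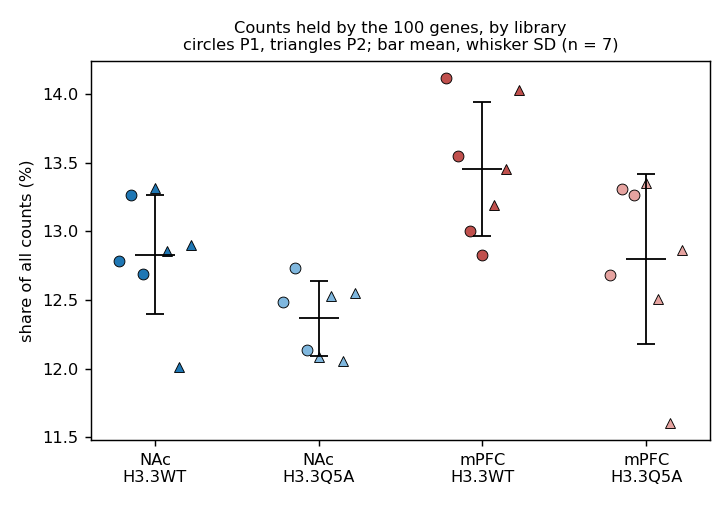
Share of all counts held by the 100 genes (%, vertical axis, not starting at 0) in each of the 28 libraries, by group, with circles for libraries marked P1, triangles for P2, and the mean and SD of 7 libraries. Shares lie between 11.6 and 14.1%, the libraries of NAc H3.3Q5A all lie below those of mPFC H3.3WT, and mPFC H3.3Q5A replicate 34 is the lowest point.

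Membership in the upper ranks differed between libraries. Of the 100 genes, 37 were among the first 100 of the table in all 28 libraries, and 80 were among the first 200 in all 28. On average 77.9 of the 100 were among the first 100 of a library in NAc H3.3WT, 73.9 in NAc H3.3Q5A, 84.9 in mPFC H3.3WT and 83.6 in mPFC H3.3Q5A. The number in single libraries ran from 54, in NAc H3.3Q5A replicate 3, to 87. Genes left out by the rule also take places in the first 100. By mean CPM over all 28 libraries, the gene ranked 88 among the members was ranked 100 in the table. Part of the shortfall from 100 thus comes from the rule. Scaling the libraries by TMM factors before ranking picked the same 100 genes.

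Between libraries of a group the 100 genes had a lower median variation than the table as a whole. Their median CV was 14.2% in NAc H3.3WT, 10.4% in NAc H3.3Q5A, 7.30% in mPFC H3.3WT and 10.5% in mPFC H3.3Q5A. Over all genes the medians in the same groups were 16.8, 13.8, 12.5 and 13.7%. With H3.3WT, 84 of the 100 genes had a higher CV in NAc than in mPFC, against 63.6% of all genes, and with H3.3Q5A 51 did, against 51.5%. That difference moved with single libraries. Without NAc H3.3WT replicate 17 the median CV there was 8.86% and 54 of the 100 genes had a higher CV in NAc, against 37.5% of all genes. Without NAc H3.3Q5A replicate 3 the median was 6.51% and 21 did, against 29.0% of all genes. With mPFC H3.3Q5A replicate 34 left out as well, the mPFC median was 8.85% and 26 did, against 33.4% of all genes.

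Both NAc libraries stood apart in many of the 100 genes at once. The CPM of NAc H3.3WT replicate 17 lay at least 1.25-fold from the mean of the 6 others of its group in 57 genes, 25 higher and 32 lower. NAc H3.3Q5A replicate 3 did so in 49 genes, 20 higher and 29 lower, and no other of the 28 libraries exceeded 30. In 34 genes both libraries deviated that far, and in 30 of these they did so in the same direction, 13 higher and 17 lower. Across the 100 genes the deviations of the pair had a Pearson's r of 0.56 and a Spearman's rho of 0.52. The other 48 pairs of a NAc H3.3WT and a NAc H3.3Q5A library spanned r from -0.76 to 0.67. The 36 of them formed without replicate 17 or replicate 3 spanned -0.49 to 0.67. Each deviation in these pairs was still taken from a mean that included replicate 17 or replicate 3. The r values of the other pairs thus depend on the 2 libraries and give no reference for the 0.56. Replicate 17 is marked P2 and replicate 3 is marked P1. The same counts were not made over all genes, so these deviations are not shown to be particular to the 100. Over all genes the 2 libraries also had the lowest median correlation of their groups, 0.966 and 0.981.

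**Figure D2:**
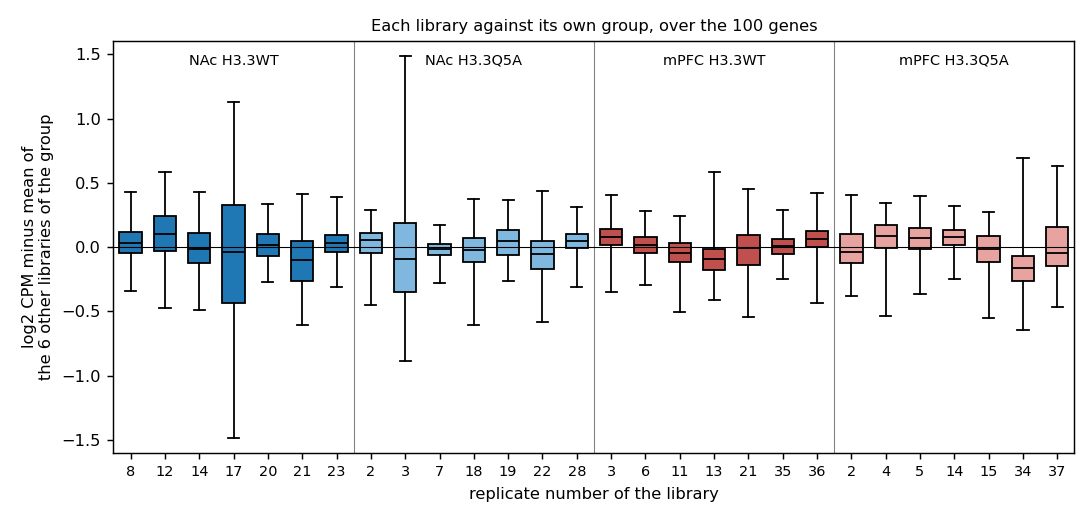
Log2 CPM of each of the 100 genes in a library minus the mean of the 6 other libraries of its group (vertical axis), as 1 box per library (median, quartiles, whiskers to the extremes), by replicate number and group. The boxes of NAc H3.3WT replicate 17 and NAc H3.3Q5A replicate 3 are wide, with 57 and 49 genes at least 1.25-fold away.

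Single genes show the size of these deviations. ENSRNOG00000001057 had a median of 964.4 CPM in NAc H3.3WT with 2117 in replicate 17 and 1181 in the next library. In NAc H3.3Q5A it had a median of 1063 CPM with 2173 in replicate 3 and 1101 in the next. The same gene was thus highest in both libraries, far from the next. ENSRNOG00000010688 reached 4086 CPM in NAc H3.3Q5A replicate 3 against 1965 in the next library, and its CV in that group was 44.6% with that library and 11.6% without it. ENSRNOG00000010365 had 1283 CPM in replicate 3 against 545.8 in the next, with a CV of 54.7%, or 17.1% without replicate 3. At the other end, ENSRNOG00000005290 had a CV of 4.57% as the mean of the 4 groups, ENSRNOG00000010945 4.93% and ENSRNOG00000020644 4.94%. Within NAc H3.3Q5A, ENSRNOG00000005290 had a CV of 8.96%, or 3.67% without replicate 3. Within NAc H3.3WT, ENSRNOG00000010945 had a CV of 4.75%, or 3.10% without replicate 17.

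The difference between the regions was tested in the H3.3Q5A libraries alone, because the rule had used the H3.3WT libraries. In these 14 libraries 55 of the 100 genes differed between NAc and mPFC, 25 higher in NAc and 30 higher in mPFC (edgeR's quasi-likelihood test, Benjamini-Hochberg adjusted p under 0.05 over 15632 genes). The background was of the same size, with 56.1% of all genes tested passing, 26.3% higher in NAc and 29.8% higher in mPFC. Among the 55, 15 differed by less than 1.25-fold and 18 by at least 1.5-fold, of which 6 were higher in NAc and 12 in mPFC. Of all genes, 26.3% passed with at least 1.5-fold, but the rule had already removed large region differences with the other virus. The CPM of the 7 NAc and 7 mPFC libraries did not overlap for 33 of the 100 genes, against 27.8% of all genes. In bulk tissue a lower value from fewer cells that express a gene and one from less RNA per cell cannot be told apart.

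Among the genes higher in mPFC, ENSRNOG00000055471 had a lowest, median and highest value of 486.1, 640.7 and 763.2 CPM in NAc H3.3Q5A, and 1076, 1383 and 1521 CPM in mPFC H3.3Q5A. Every NAc library was below every mPFC library, and the log2 fold change of NAc over mPFC was -1.04 ± 0.09 (SE; edgeR adjusted p = 3.55e-07). ENSRNOG00000059720 had 389.3, 478.0 and 636.8 CPM in NAc H3.3Q5A and 859.4, 1126 and 1222 CPM in mPFC H3.3Q5A. Its libraries also did not overlap, with a log2 fold change of -1.01 ± 0.11 (SE; edgeR adjusted p = 2.34e-06).

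Among the genes higher in NAc, ENSRNOG00000011751 had a lowest, median and highest value of 2363, 2589 and 3202 CPM in NAc H3.3Q5A, and 1349, 1510 and 1571 CPM in mPFC H3.3Q5A. Every NAc library was above every mPFC library, and the log2 fold change was 0.91 ± 0.10 (SE; edgeR adjusted p = 2.29e-06). ENSRNOG00000052080 had 1313, 1498 and 1760 CPM in NAc H3.3Q5A and 889.5, 949.9 and 1035 CPM in mPFC H3.3Q5A. The groups were again separate, with a log2 fold change of 0.72 ± 0.09 (SE; edgeR adjusted p = 1.48e-05).

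The median log2 fold change of the 100 genes was -0.04, with a range from -1.04 to 0.91, and the median over all genes was -0.02. For 22 genes the 95% confidence interval lay within 1.25-fold in either direction, for 62 within 1.5-fold and for 90 within 2-fold. Over all genes tested those shares were 23.5, 51.2 and 74.4%. The rule had already removed large region differences with H3.3WT, so higher shares among the 100 were favoured in advance and are not a result. Without NAc H3.3Q5A replicate 3 and mPFC H3.3Q5A replicate 34, 65 of the 100 genes passed, 25 higher in NAc and 40 higher in mPFC, against 57.3% of all genes. All 55 genes kept their direction in every alternative that was run, and 48 passed in each of the 14 fits without 1 library.

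The regional differences in the H3.3Q5A libraries had the same direction as those in the H3.3WT libraries for 90 of the 100 genes, 55 below 0 and 35 above 0 in both. Pearson's r across the 100 genes was 0.95 and Spearman's rho 0.93, with no library shared. Genes are not independent replicates, and the figures are a description. All 17 genes that were at least 1.5-fold apart with H3.3WT passed the test with H3.3Q5A. Of the 59 genes under 1.25-fold with H3.3WT, 17 passed. Each of the 55 genes that passed had the direction it had with H3.3WT.

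**Figure D3:**
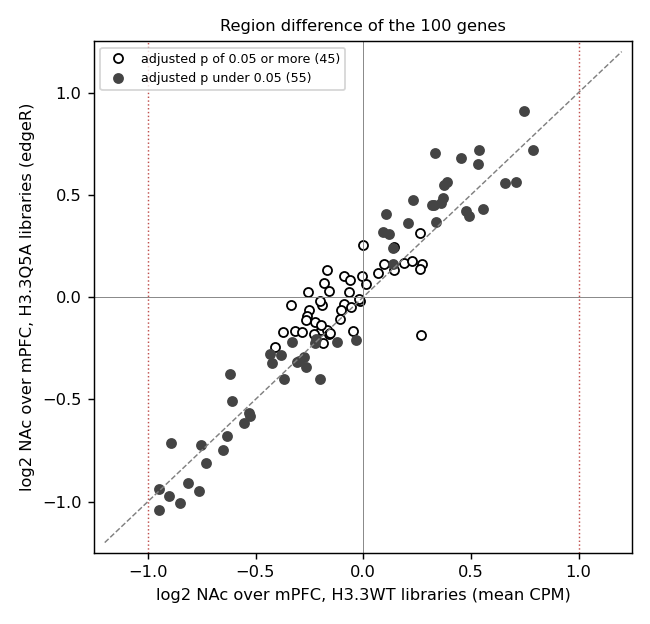
Log2 of NAc over mPFC for the 100 genes in the H3.3WT libraries, from mean CPM (horizontal axis), against the edgeR estimate in the H3.3Q5A libraries (vertical axis), with filled points for the 55 genes at an adjusted p under 0.05 and open points for the other 45. Dotted vertical lines mark the limit of 1 used by the rule, the dashed line marks equal values, and the 55 filled points have the same sign on both axes.

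In NAc no gene of the 100 passed the test of H3.3Q5A against H3.3WT, and the estimates were small. The edgeR test called 0 of the 100 genes, against 0 of the 15426 genes tested, and the lowest adjusted p among the 100 was 0.638. DESeq2 and limma voom also called 0 of the 100, and 9 and 4 genes in the whole table. At an unadjusted p under 0.05, 10 of the 100 stood, 1 higher and 9 lower with H3.3Q5A, against 7.84% of all genes, 3.51% higher and 4.33% lower. The largest fold was 1.27, and 72 of the 100 genes were within 1.1-fold. The 95% interval lay within 1.25-fold for 45 genes, within 1.5-fold for 94 and within 2-fold for all 100, against 41.8, 76.9 and 94.2% of all genes.

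Of the 100 estimates in NAc, 66 were below 0 and 34 above, whereas 51.5% of all genes were above 0. The median log2 fold change was -0.05, the range -0.35 to 0.30, and the median over all genes 0.01. Without NAc H3.3WT replicate 17 and NAc H3.3Q5A replicate 3 together, the median was -0.06 and 22 genes stood at an unadjusted p under 0.05, all lower with H3.3Q5A, against 10.1% of all genes. The count of 10 was 20 without H3.3WT replicate 17, 17 without H3.3WT replicate 21, 4 without H3.3WT replicate 23 and 6 without H3.3Q5A replicate 7. Over all genes tested, 1686 of 15422, 2140 of 15420, 821 of 15408 and 715 of 15473 stood in these fits. With all 14 libraries 1209 of 15426 did, so the count over all genes moved too. The median of the 100 genes was -0.08 without H3.3Q5A replicate 3 and -0.07 without H3.3WT replicate 21. The median was -0.06 in the libraries marked P1 alone and -0.09 in those marked P2 alone. Each of these fits had 0 of the 100 genes at an adjusted p under 0.05.

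The levels of genes that differ strongly between the regions are set beside these estimates. A set of 95 genes with at least 10 CPM, at least 2 higher in log2 in mPFC than in NAc with H3.3WT, had in NAc a mean log2 CPM of 3.19 ± 0.59 with H3.3WT and of 2.72 ± 0.47 with H3.3Q5A (SD, n = 7). The libraries ran from 2.29 to 3.99 with H3.3WT, highest in replicate 12, and from 2.40 to 3.69 with H3.3Q5A, so the groups overlapped. The 122 genes higher in NAc averaged 6.09 ± 0.16 and 6.31 ± 0.24 log2 CPM in the same groups (SD, n = 7). Their libraries ran from 5.88 to 6.31 with H3.3WT and from 6.03 to 6.78 with H3.3Q5A, highest in replicate 3. In mPFC the 95 genes averaged 5.74 ± 0.22 with H3.3WT and 5.72 ± 0.22 with H3.3Q5A, and the 122 genes 3.04 ± 0.19 and 3.15 ± 0.39 (SD, n = 7). For the 122 genes, mPFC H3.3Q5A replicate 34 was at 4.03 and the next library of that group at 3.15. The mPFC H3.3WT libraries ran from 2.90 to 3.44. Both sets were chosen on the H3.3WT libraries, so no test is given, and their part in the virus estimates of the 100 genes was not tested.

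The genes with the smallest unadjusted p in each direction give the scale. ENSRNOG00000016770 had a lowest, median and highest value of 1094, 1321 and 1462 CPM with H3.3WT, and 1067, 1129 and 1169 CPM with H3.3Q5A. The groups overlapped, and the log2 fold change was -0.20 ± 0.07 (SE; edgeR unadjusted p = 0.0148, adjusted p = 0.638). ENSRNOG00000025053 had 978.7, 1052 and 1183 CPM with H3.3WT, and 1124, 1187 and 1351 CPM with H3.3Q5A. Here too the ranges overlapped, with a log2 fold change of 0.19 ± 0.08 (SE; edgeR unadjusted p = 0.0349, adjusted p = 0.638). Its highest value came from replicate 3, without which the estimate was 0.13, and it was 0.35 in the P1 and 0.07 in the P2 libraries. For none of the 100 genes were the 7 and 7 libraries separate in NAc, against 0.143% of all genes.

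In mPFC the estimates for the 100 genes lay mostly below 0, by small amounts that passed no adjusted edgeR test. The edgeR test called 0 of the 100, against 0 of 15544 genes tested, with a lowest adjusted p among the 100 of 0.625. DESeq2 called 1 of the 100 and 8 genes in the whole table, and limma voom called 0 of the 100. Of the 100 estimates 91 were below 0 and 9 above, whereas 50.6% of all genes were above 0. The median log2 fold change was -0.11, the range -0.21 to 0.24, and the median over all genes 0.002. All 100 genes were within 1.25-fold, and 64 had a 95% interval within 1.25-fold in either direction, against 50.5% of all genes. For all 100 the interval lay within 1.5-fold, against 79.0% of all genes.

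At an unadjusted p under 0.05, 19 of the 100 genes stood in mPFC, 1 higher and 18 lower with H3.3Q5A, against 7.91% of all genes, 4.01% higher and 3.89% lower. That count moved with single libraries. It was 6 to 12 without H3.3WT replicate 3, 6, 21, 35 or 36 or without H3.3Q5A replicate 2, 15, 34 or 37, and 36 without H3.3WT replicate 13. Over all genes tested, the fits with 6 to 12 had from 720 of 15563 to 1326 of 15554 genes at that p. Without H3.3WT replicate 13 it was 2024 of 15525, against 1229 of 15544 with all libraries. The median of the 100 genes was -0.09 without H3.3Q5A replicate 34. Within the marks the median was -0.05 in the P1 libraries, with 22 genes above 0, and -0.18 in the P2 libraries, with 13 above 0. Scaling by column sums without TMM factors gave a median of -0.08, with all genes at 0.04. Total counts in mPFC were 29.1 ± 7.36 M with H3.3WT and 36.6 ± 6.72 M with H3.3Q5A, and in NAc 26.7 ± 5.93 and 26.6 ± 11.5 M (SD, n = 7). The part of depth in the result was not tested.

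One gene had separate libraries. ENSRNOG00000020644 had a lowest, median and highest value of 1073, 1115 and 1216 CPM in mPFC H3.3WT, and 924.1, 1003 and 1072 CPM in mPFC H3.3Q5A. All 7 H3.3Q5A libraries were below all 7 H3.3WT libraries, by a narrow margin, where 0.103% of all genes had separate groups in either direction. Its log2 fold change was -0.20 ± 0.05 (SE; edgeR unadjusted p = 0.00146, adjusted p = 0.625), and DESeq2 gave -0.20 ± 0.05 (SE; adjusted p = 0.0479). The adjusted p over the other edgeR and limma fits ran from 0.365 to 0.9998, and the estimate was -0.17 in the P1 and -0.23 in the P2 libraries. In NAc the same gene had 1319 ± 49.7 CPM with H3.3WT and 1358 ± 86.4 with H3.3Q5A (SD, n = 7), a log2 fold change of 0.05. The difference between the regions was not tested.

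The other genes with small p in mPFC overlapped between the viruses. ENSRNOG00000008195 had a lowest, median and highest value of 1351, 1451 and 1504 CPM with H3.3WT, and 1111, 1327 and 1395 CPM with H3.3Q5A. Its log2 fold change was -0.19 ± 0.06 (SE; edgeR unadjusted p = 0.00926, adjusted p = 0.625), with -0.07 in the P1 and -0.31 in the P2 libraries. ENSRNOG00000058561 had 836.7, 1103 and 1389 CPM with H3.3WT, and 1085, 1306 and 1593 CPM with H3.3Q5A, against the direction of most of the 100. Its log2 fold change was 0.22 ± 0.10 (SE; edgeR unadjusted p = 0.0456, adjusted p = 0.625). ENSRNOG00000047505 had the largest estimate above 0, 0.24 ± 0.13 (SE; edgeR unadjusted p = 0.0836, adjusted p = 0.627). Its highest H3.3Q5A value, 1838 CPM, came from replicate 34, with 1299 in the next library. Without replicate 34 the estimate was 0.13, and it was 0.08 in the P1 and 0.40 in the P2 libraries.

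**Figure D4:**
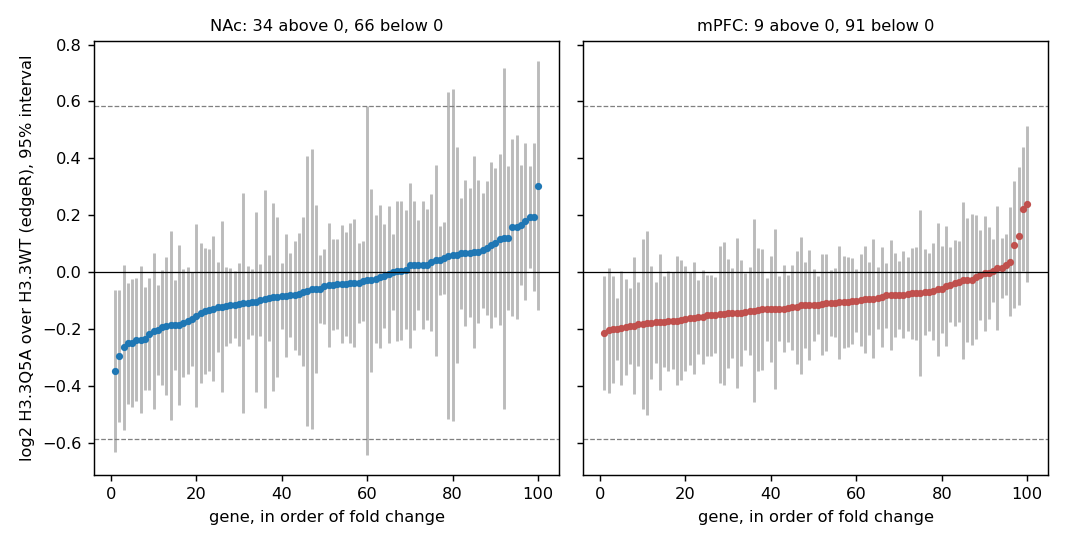
Log2 of H3.3Q5A over H3.3WT for the 100 genes (vertical axis, edgeR estimate as a point, 95% confidence interval as a grey bar), in order of the estimate, in NAc (left) and mPFC (right), with dashed lines at 1.5-fold. In NAc 34 estimates are above and 66 below 0, and in mPFC 9 are above and 91 below, all of them inside the dashed lines.

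Side by side, 62 genes were below 0 in both regions and 5 above 0 in both, so 67 of the 100 had the same sign. With 66 below 0 in NAc and 91 in mPFC, most genes share a sign even without a relation between the regions. The share over all genes was not computed. Across the 100 genes the estimates in NAc and mPFC had a Pearson's r of 0.18 and a Spearman's rho of 0.12, with no library shared. This is a description across genes, which are not independent replicates. ENSRNOG00000058561 had estimates above 0 in both regions, 0.16 ± 0.10 in NAc and 0.22 ± 0.10 in mPFC (SE). Its estimate in NAc was 0.10 without H3.3Q5A replicate 3, 0.37 in the P1 and -0.0017 in the P2 libraries, and in mPFC it was 0.14 without H3.3WT replicate 36 and 0.14 in the P1 libraries. For ENSRNOG00000047505 the mean was 1242 ± 175 CPM with H3.3WT and 1064 ± 158 with H3.3Q5A in NAc (SD, n = 7), and 1032 ± 124 and 1243 ± 287 in mPFC. Whether the virus effect differed between the regions was not tested for these genes. The virus comparisons share their H3.3Q5A libraries with the region comparison, and no relation between them is given.

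**Figure D5:**
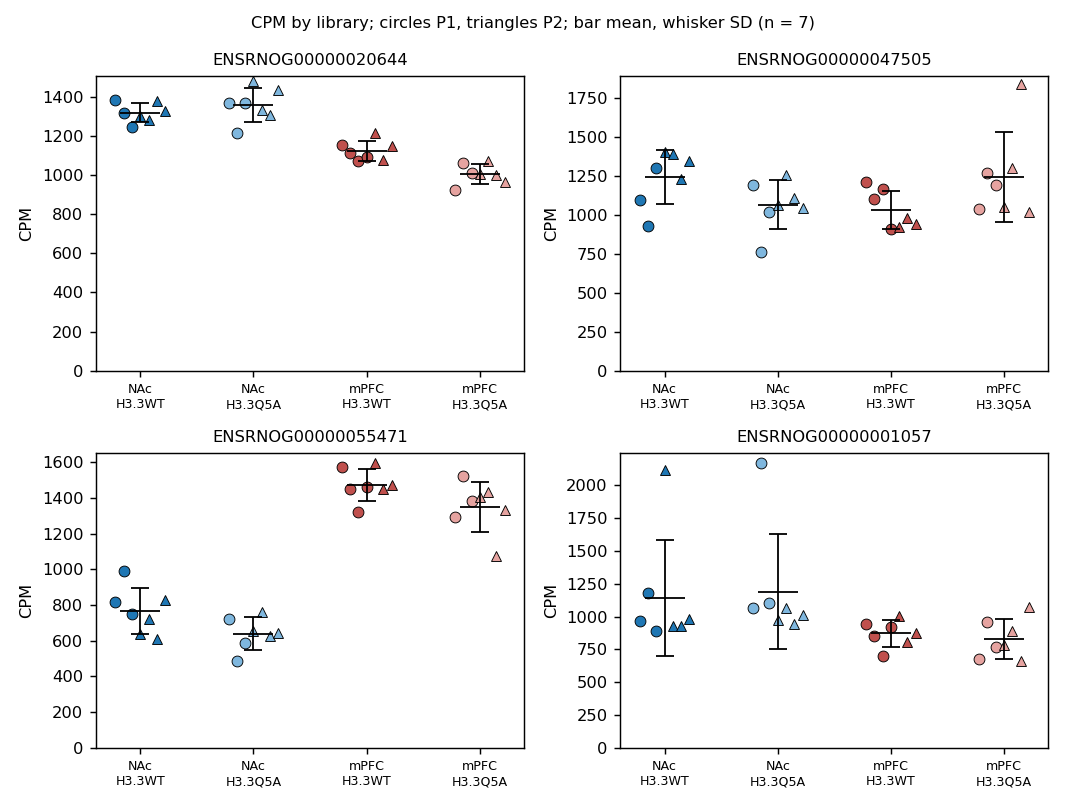
CPM (vertical axis, from 0) of 4 of the genes in each library by group, with circles for libraries marked P1, triangles for P2, and the mean and SD of 7 libraries. ENSRNOG00000020644 is separate between the viruses in mPFC, ENSRNOG00000047505 has 1 high library (1838 CPM) in mPFC H3.3Q5A, ENSRNOG00000055471 is separate between the regions with H3.3Q5A, and ENSRNOG00000001057 has 1 high library in each NAc group (2117 and 2173 CPM).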

How the data were processed

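The deposited values are raw read counts per Ensembl gene. The submitters' processing notes name HISAT2 2.1.0, featureCounts 2.0.1, DESeq2 1.6.3 and the build rn6, without the role of each, and the counts used an annotation release not given in the sources used here. Per the labels, libraries were made with a TruSeq RNA V2 kit, which does not mark strand. Every deposited gene reached 10 counts in at least 14 libraries, so low genes had been removed before deposit. CPM was computed from column sums. Tests used edgeR 4.0.16 in R 4.3.3 (quasi-likelihood, TMM, filterByExpr, the P1 or P2 mark as a term) on the 14 libraries of a comparison, with p-values adjusted over all genes tested. DESeq2 1.42.0 and limma 3.58.1 (voom with sample quality weights), other scalings, no filter, no mark term, each mark alone, all 28 libraries in 1 fit and leaving out libraries were alternatives. Leaving out libraries that stand apart, 2 together in the fits and 1 per group for the variation of genes, was chosen after seeing the data. The members and lists were chosen with earlier results of these data known. Genes named in the text were the highest, those with the smallest p or largest called difference, the most and least variable, and those at the limits of the rule, reduced to the ones the results turn on. The edgeR fit was also run on simulated counts in which no library was made to stand apart, and the outcome is not given here. No 2 libraries of a group agreed within sampling noise (lowest chi-square per degree of freedom 7.49). Gene lists and cell type markers, written as symbols, were not analysed here.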

Additional observations from a re-analysis of the deposited data

Results flagged for a closer look

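In a group of 7 libraries, the highest or lowest value of a gene was set against the nearest of the others, by a limit that chance passes in about 1 in 20 groups. Over all 100 genes, 76 of 400 combinations of gene and group passed it, 32 of them through NAc H3.3WT replicate 17 and 26 through NAc H3.3Q5A replicate 3. The share over all genes of the table was not computed. Among the genes named above, NAc H3.3Q5A replicate 3 was highest for ENSRNOG00000008195 (2277 CPM, next 1646), ENSRNOG00000010365 (1283, next 545.8), ENSRNOG00000001057 (2173, next 1101) and ENSRNOG00000010688 (4086, next 1965). The same library was lowest for ENSRNOG00000005290 (769.7 CPM, next 916.1) and ENSRNOG00000004680 (534.4, next 675.1). NAc H3.3WT replicate 17 was highest for ENSRNOG00000001057 (2117 CPM, next 1181). NAc H3.3WT replicate 21 was lowest for ENSRNOG00000005290 (988.5 CPM, next 1017). In mPFC H3.3Q5A, replicate 34 was highest for ENSRNOG00000047505 (1838 CPM, next 1299) and replicate 37 for ENSRNOG00000033508 (758.5 CPM, next 687.6).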

How the results depend on the processing

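No paired analysis was possible because the groups compared share fewer than 2 replicate numbers. The number of the 100 genes that differed between the regions with H3.3Q5A was 50 to 59 when 1 library was left out, 33 in the P1 libraries alone, 28 of the 50 highest genes and 119 of the 200 highest. Over all genes tested, from 8274 to 8891 of 15635 passed without 1 library and 5478 of 15564 in the P1 libraries alone. The 50 and 200 highest genes were taken from the main fit, where 56.1% of all genes passed. The median region difference was -0.06 to -0.02 without 1 library, but 0.025 for the 50 highest genes and 4.34e-05 in the P2 libraries alone, so its sign is not fixed. ENSRNOG00000010365 passed in all fits but the P1 libraries alone (-0.33). Those libraries include NAc H3.3Q5A replicate 3, with 1283 CPM against 545.8 in the next library of its group. With 1 library left out its estimate ran from -1.24 to -0.85. With any 1 library left out the virus tests called 0 of the 100 genes, and DESeq2 called 1 in mPFC. The median virus difference without 1 library was -0.08 to -0.04 in NAc and -0.14 to -0.09 in mPFC, where it was -0.047 in the P1 and -0.179 in the P2 libraries. ENSRNOG00000058561 in NAc was at -0.0017 in the P2 libraries alone. The share of counts of the 50 and of the 200 highest genes was 8.30 and 19.1% in NAc H3.3WT, 7.96 and 18.7% in NAc H3.3Q5A, 8.31 and 19.8% in mPFC H3.3WT, and 7.85 and 18.998% in mPFC H3.3Q5A. Without 1 library the share of the 100 genes was 12.75 to 12.97, 12.31 to 12.42, 13.34 to 13.56 and 12.70 to 12.997% in the same groups. Counting error is small at this depth, and the spread between libraries limits the tests.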
